A study of Mus musculus with 4 samples.

Results

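Genes of the BCL-2 network of cell death, 10 of the 14432 in the count table, were described across 4 single-cell libraries of mouse macrophages. They were taken by symbol from a list drawn up with earlier results of these data known, and all 10 were found in the table. By role they are 5 survival genes (Bcl2, Bcl2l1, Mcl1, Bcl2a1b and Bcl2a1d), 2 BH3-only genes (Bcl2l11, which encodes BIM, and Bmf), 2 pore formers (Bax and Bak1) and 1 regulator of caspase-8 (Cflar, which encodes c-FLIP).

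In mitochondrial apoptosis, BAX and BAK assemble into pores in the outer mitochondrial membrane, through which cytochrome c leaves and caspases are switched on. The survival proteins BCL-2, BCL-XL (from Bcl2l1), MCL-1 and A1 (from the Bcl2a1 genes) hold BAX and BAK in check, and BH3-only proteins such as BIM and BMF bind and disarm the survival proteins. In macrophages, A1 is a textbook target of NF-kB, and c-FLIP keeps death receptors and Toll-like receptor adaptors from setting off caspase-8.

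The cells were bone marrow-derived macrophages, primary cells cultured from mouse marrow with 50 ng/mL of M-CSF, a macrophage growth factor, from mice aged 8 to 12 weeks. The groups were wild type (C57BL/6J) untreated, wild type given bacterial lipopolysaccharide (LPS, sensed by the receptor TLR4) at 100 ng/mL for 24 h, and the same pair from mice labelled Trpv4-null, which lack the mechanosensitive calcium channel TRPV4 by their label. All 4 groups share the M-CSF culture. The design text speaks of 3 mice per genotype, but there was 1 library per group and no map from cells to mice. No difference between groups therefore has a replicate check, no test was run, and every interval given is an exact 95% interval that covers counting error only.

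The 4 libraries held 5485 to 8288 cells and 43731003 to 144090985 UMIs (unique molecular identifiers, 1 per captured mRNA molecule). Depth moved with LPS: median UMIs per cell were 5660.5 (wild type) and 7893 (labelled Trpv4-null) without LPS, and 16673.5 and 16041 with it. The median mitochondrial share of UMIs was 6.06% and 6.13% untreated against 3.05% and 3.19% after LPS. Any pair of libraries shared 7 to 16 cell barcodes. All 14 macrophage markers reached 20 CPM (UMIs per 1000000 UMIs of the library) in each library, while none of 7 dendritic cell markers did in any. Of other lists few genes were measured, 1 of 6 for T or NK cells, 3 of 6 stromal, 1 of 4 erythroid and 0 of 4 for mast cells. None of those measured reached 20 CPM, and the unmeasured genes check nothing. Summed neutrophil markers had 186 CPM (wild type) and 337 CPM (labelled Trpv4-null) without LPS, 52.6 and 41.9 with it, with 4 of 8 measured markers reaching 20 CPM in any library. Summed B cell markers had 141 and 142 CPM without LPS, nearly all of it Ighm, and 3.94 and 2.81 CPM with it, with Ms4a1 at or near 0 throughout. Summed monocyte markers had 97.7 and 105 CPM without LPS and 864 and 964 CPM with it, nearly all of the latter being Ms4a4c (825 and 935 CPM, against 11.4 and 17.1 untreated). The monocyte list had no single direction, since Ccr2 (34.1 untreated and 6.76 CPM with LPS in wild type), F13a1 (33.1 and 0.868) and Chil3 (14.2 and 3.30) were lower after LPS. Trpv4 itself was counted at 5.83 and 2.07 CPM in the untreated and LPS-treated wild-type libraries, and at 8.60 and 9.62 CPM in those labelled Trpv4-null. The counts thus go against the label. The sources used here do not give the deleted part of the gene, and a count from outside it would check nothing, so the groups are called by their label throughout.

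The first sequences shown lie upstream of the Bcl2a1 genes, since the mouse carries several nearly identical copies of A1 on chromosome 9. A count must be assigned to one of these copies. That assignment concerns the transcripts, compared further on, and not the upstream bases. The stretches below end just before the first annotated exon base and come from RefSeq promoter windows on GRCm38.p6, 5′ to 3′ on the gene's own strand. They lie at chr9:89199023-89199208 (plus strand) for Bcl2a1b, chr9:88731915-88732100 (minus strand) for Bcl2a1d and chr9:88956670-88956899 (plus strand) for Bcl2a1a, another copy that is not among the 10 genes.
Bcl2a1b: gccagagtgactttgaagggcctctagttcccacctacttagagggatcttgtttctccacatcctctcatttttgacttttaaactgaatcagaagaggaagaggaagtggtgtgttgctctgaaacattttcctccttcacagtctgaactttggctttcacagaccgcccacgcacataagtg
Bcl2a1d: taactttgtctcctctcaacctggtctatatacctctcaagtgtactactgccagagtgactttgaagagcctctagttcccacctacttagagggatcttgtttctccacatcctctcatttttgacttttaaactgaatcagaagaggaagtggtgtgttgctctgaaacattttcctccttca
Bcl2a1a: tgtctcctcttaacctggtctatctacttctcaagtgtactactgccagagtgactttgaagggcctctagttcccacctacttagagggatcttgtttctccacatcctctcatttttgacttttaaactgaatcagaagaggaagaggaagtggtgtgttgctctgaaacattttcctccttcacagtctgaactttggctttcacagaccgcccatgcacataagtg
With gaps not counted, Bcl2a1a and Bcl2a1b matched at 185 of 186 aligned upstream bases, Bcl2a1b and Bcl2a1d at 135 of 136, and Bcl2a1a and Bcl2a1d at 176 of 180. The transcripts were as close: over 817 aligned bases Bcl2a1b and Bcl2a1d differed at 7, and 57.6% of the 50-base stretches of Bcl2a1b also occur in Bcl2a1d. The split of counts among the copies is therefore uncertain, and their sum is given beside them.

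The other sequence shown belongs to Bcl2l11, at chr2:128125788-128126037 on the plus strand, ending just before the first of its annotated start sites. The capitals mark GTAAACA, the FoxO motif, in the only promoter window of the 10 genes that held it on either strand.
Bcl2l11: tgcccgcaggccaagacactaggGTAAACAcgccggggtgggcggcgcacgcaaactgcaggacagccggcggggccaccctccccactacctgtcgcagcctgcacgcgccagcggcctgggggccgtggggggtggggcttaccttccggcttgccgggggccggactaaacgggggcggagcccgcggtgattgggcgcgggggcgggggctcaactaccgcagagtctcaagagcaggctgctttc
This motif was present in 1040 of 32851 RefSeq promoter windows of the same length (3.17%), counting both strands. The NF-kB consensus, searched the same way, was present in 2382 windows (7.25%), and among the 10 genes only in that of the second Bcl2l1 start site. All 250 bases of that window lie in annotated exon, as do those of the first Bcl2l1 window and of the Bak1 window. These matches are letters in a window, not sites, and their absence elsewhere says only that the letters are not in that window.

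The first question of the design is what LPS did to these genes. In both genotypes the A1 genes Bcl2a1b and Bcl2a1d, Bcl2l1, Bak1 and Cflar were at least 2-fold higher after LPS, Bcl2l11 and Bmf were at least 2-fold lower, and Mcl1 and Bax lay within 2-fold. That is 5 higher and 2 lower of 9 genes compared in each genotype, where a gene was compared if it had at least 20 CPM and 30 UMIs in the higher library, and Bcl2 did not. Over all genes compared, 6.90% of 6332 were at least 2-fold higher and 17.7% at least 2-fold lower in wild type, and 7.30% and 21.3% of 6340 in the Trpv4-null-labelled pair. The median log2 ratio of the 9 genes was 1.09 in wild type and 1.13 in the Trpv4-null-labelled pair, against -0.39 and -0.42 over all compared genes. For log2 ratios, 1 CPM was added to each level, so ratios of very low genes come out too small. The LPS comparisons use separate untreated libraries, and the genotype comparisons further on use the same 4 libraries.

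**Figure D1:**
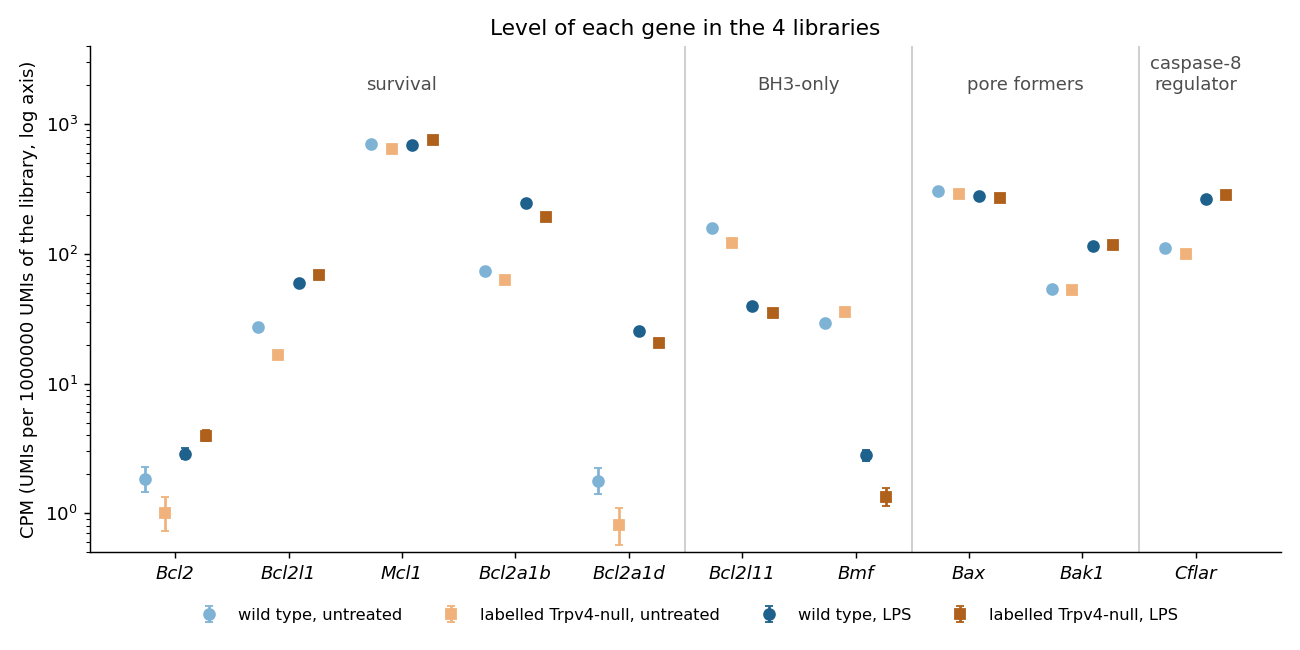
Level of each of the 10 genes in the 4 libraries, as CPM on a log axis, with exact Poisson 95% intervals as bars and genes grouped by role. Bcl2a1b, Bcl2a1d, Bcl2l1, Bak1 and Cflar sit higher in both LPS libraries than in both untreated ones, and Bcl2l11 and Bmf sit lower. Levels are comparable within a gene, not between genes.

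Among the survival genes, Bcl2a1b was counted at 74.3 CPM in untreated wild-type cells, 247 CPM after LPS, 63.1 CPM in untreated cells labelled Trpv4-null and 193 CPM in those given LPS. Both LPS libraries lay above both untreated ones. The ratio of LPS to untreated was 3.32 (3.20 to 3.44) in wild type and 3.06 (2.95 to 3.18) in the Trpv4-null-labelled pair. Its near-identical copy Bcl2a1d was counted at 1.78, 25.5, 0.808 and 20.5 CPM in the same order. Bcl2a1d rested on 78 and 38 UMIs in the untreated libraries, so that its ratios were wide, at 14.3 (11.4 to 18.1) in wild type and 25.4 (18.4 to 36.0) in the Trpv4-null-labelled pair. Its annotated locus also overlaps Gm10634 on the opposite strand, and strand use in counting is not given in the sources used here. The locus of Bcl2a1b overlaps Gm29094, a protein-coding gene on the same strand that is not in the table.

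Bcl2l1, the BCL-XL gene, was counted at 27.1 CPM in untreated wild-type cells, 59.4 CPM after LPS, 16.5 CPM in untreated cells labelled Trpv4-null and 68.1 CPM in those given LPS. The LPS libraries were again the high ones, while the untreated libraries differed from each other more than the LPS libraries did. The ratio was 2.19 (2.06 to 2.33) in wild type and 4.12 (3.83 to 4.45) in the Trpv4-null-labelled pair. The wild-type value lies close to the 2-fold limit and falls under it, at 0.93 on the log2 scale, when cells over 5% mitochondrial UMIs are left out.

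Mcl1, which encodes a short-lived survival protein, lay within 2-fold in each comparison. It was counted at 705, 689, 645 and 755 CPM in wild type untreated and with LPS and in the Trpv4-null-labelled pair untreated and with LPS. The ratios of 0.979 (0.966 to 0.991) and 1.17 (1.16 to 1.19) lie on opposite sides of 1, and the wild-type one turns above 1 in 5 of 11 alternatives, to a log2 ratio of 0.25 (median-of-ratios scaling) and 0.49 (TMM) and to at most 0.05 with cells weighted equally, with cells thinned to 3000 UMIs or in the largest cluster alone. Per cell, without scaling by depth, Mcl1 had 4.38 and 12.0 UMIs in wild type and 5.52 and 12.5 in the Trpv4-null-labelled pair. Bcl2, the founding member of the family, was counted at only 1.83, 2.89, 1.0 and 3.97 CPM, or 47 to 433 UMIs per library. Its ratios were 1.58 (1.24 to 2.03) and 3.97 (2.93 to 5.49), below the level at which a gene was compared.

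The BH3-only genes went the other way. Bcl2l11 was counted at 157 CPM in untreated wild-type cells and 39.6 CPM after LPS, and at 120 and 34.8 CPM in the Trpv4-null-labelled pair. The LPS libraries were the low ones in both genotypes, with ratios of 0.253 (0.244 to 0.262) and 0.290 (0.278 to 0.302). Because the LPS libraries were deeper, the UMIs per cell differed less, at 0.976 and 0.689 in wild type and 1.03 and 0.579 in the Trpv4-null-labelled pair. Bmf, whose protein is known for release from the cytoskeleton upon detachment or stress, was counted at 29.2 and 2.80 CPM in wild type and at 35.6 and 1.34 CPM in the Trpv4-null-labelled pair. It was the gene with the lowest ratios of the 10, at 0.0957 (0.0854 to 0.107) and 0.0376 (0.0315 to 0.0446). Only 1.31% of all compared genes in wild type, and 0.489% in the Trpv4-null-labelled pair, had a log2 ratio as low as that of Bmf.

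The pore formers parted from each other. Bak1 was counted at 53.3, 115, 52.7 and 117 CPM, in the order wild type untreated and LPS, then labelled Trpv4-null untreated and LPS. The 2 untreated libraries lay close together and so did the LPS libraries, with ratios of 2.15 (2.06 to 2.25) and 2.22 (2.12 to 2.32). The wild-type value is near the limit too, and is 0.97 on the log2 scale without cells over 5% mitochondrial UMIs. Bak1 overlaps Ggnbp1, a gene on the opposite strand that is in the table. The locus of Bax overlaps Gm45808, a protein-coding gene on the same strand that is not in the table. Bax was counted at 307, 277, 291 and 271 CPM, so that the 4 libraries lay close together. Its ratios of 0.901 (0.884 to 0.919) and 0.928 (0.910 to 0.947) turn above 1 with median-of-ratios scaling (0.13 and 0.17 on the log2 scale) and with TMM scaling (0.37 and 0.47), and the second also in the largest cluster alone (0.06) and when cycling cells were dropped by their phase call (0.02).

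Cflar, which blocks caspase-8 at death receptors, was counted at 110 CPM in untreated wild-type cells, 264 CPM after LPS, 100.2 CPM in untreated cells labelled Trpv4-null and 283 CPM in those given LPS. The LPS libraries were the high ones, with ratios of 2.39 (2.32 to 2.46) and 2.82 (2.74 to 2.91). Depth, the mitochondrial share, the summed neutrophil and B cell markers and, among the monocyte markers, Ms4a4c in one direction and Ccr2, F13a1 and Chil3 in the other moved with LPS as well. The counts of genes past 2-fold were as large without the 7 to 12 cells per library that carried at least 10 S100a8 and S100a9 UMIs, and when each cell was thinned to 3000 UMIs they were 5 and 4 higher and 2 lower in each genotype, Bcl2a1d then having fewer than 20 CPM in the second. The part of the other markers was not tested.

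**Figure D2:**
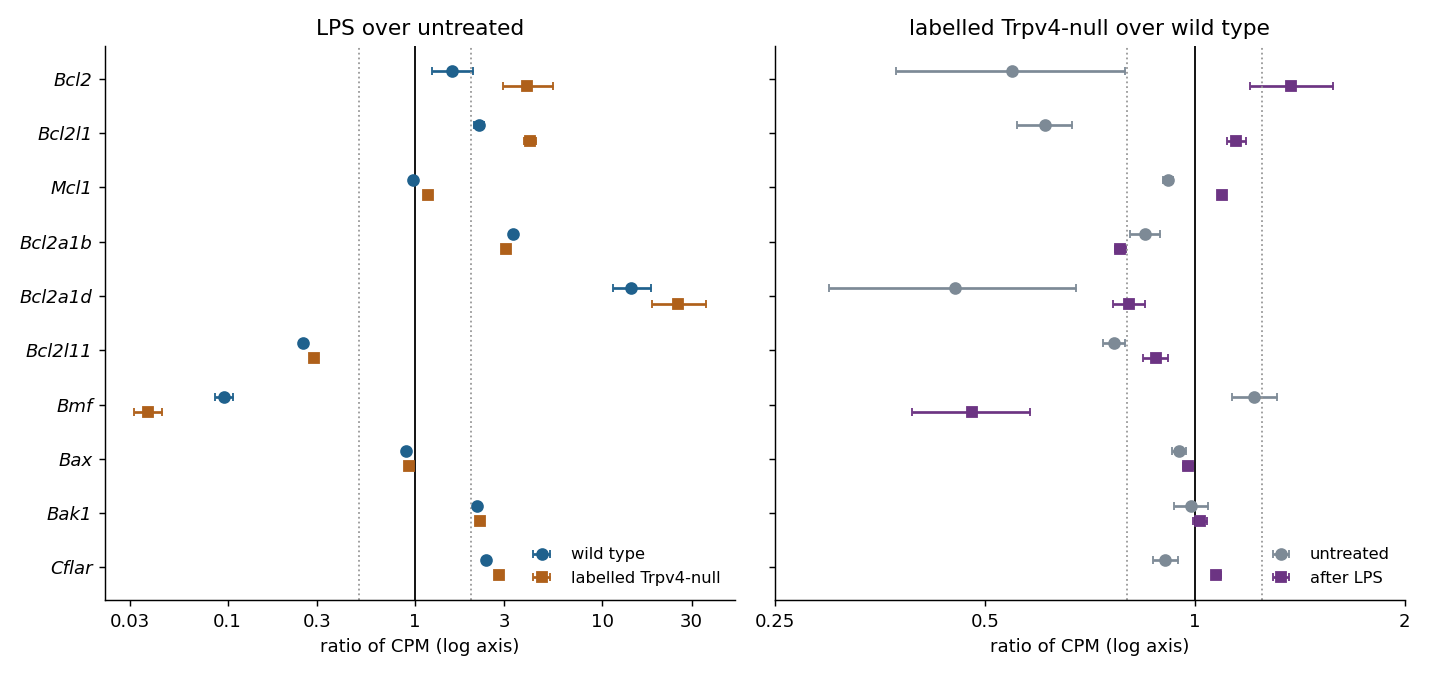
Ratios of CPM on a log axis for the 10 genes, LPS over untreated on the left and labelled Trpv4-null over wild type on the right, with exact 95% counting intervals. Dotted lines mark 2-fold on the left and 20% lower or 25% higher on the right. On the left the pairs of points for a gene lie close together except for Bcl2, Bcl2l1, Bcl2a1d and Bmf, and on the right most points lie within the dotted lines.

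The rest of the death machinery was read from 7 lists with 63 genes in the table, of which 49 were compared for LPS. In wild type, 2-fold or more separated 11 higher and 7 lower genes, with a median log2 ratio of -0.14, and in the Trpv4-null-labelled pair 12 and 7, with a median of -0.11. Over all compared genes the medians were -0.39 and -0.42, with 6.90% and 7.30% higher and 17.7% and 21.3% lower, and the list medians below are to be read against these. No difference between lists was tested. Of the 6 compared genes of necroptosis and pyroptosis, the lytic forms of death, 5 were higher in each genotype (Casp1, Casp4, Gsdmd, Mlkl and Zbp1), with medians of 1.27 and 1.37. Zbp1, a nucleic acid sensor that can start necroptosis, was at 15.9 and 337 CPM in wild type, and the necroptosis executioner Mlkl at 8.07 and 52.5 CPM. Of 10 compared death receptor genes and adaptors, 3 were higher and none lower in each genotype, with medians of 0.48 and 0.55. These were the adaptors Traf1 and Traf2 and the NF-kB feedback inhibitor Tnfaip3, with log2 ratios of 2.52, 1.02 and 1.45 in wild type and 2.85, 1.15 and 2.23 in the Trpv4-null-labelled pair.

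The list of p53 and FoxO genes also holds p53 targets. Of its 9 compared genes, 3 were lower, 6 lay within 2-fold and none was higher in each genotype. Their medians of -0.38 and -0.53 lie close to the -0.39 and -0.42 of all compared genes. Foxo3, a transcription factor known to act on Bcl2l11 in other cells, was at 88.8 and 20.6 CPM in wild type and at 80.1 and 16.2 CPM in the Trpv4-null-labelled pair. The p53 target Trp53inp1 was lower still, with log2 ratios of -3.03 and -3.26. Of 5 other compared BH3-only and killer genes, only Bbc3, which encodes PUMA, passed 2-fold, at 36.3 and 10.8 CPM in wild type and 40.6 and 9.91 CPM in the Trpv4-null-labelled pair. The medians of that list were 0.22 and -0.38.

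Downstream of the pore, 9 genes of the apoptosome and its caspases were compared, with medians of -0.14 and -0.15. Cycs, which encodes the cytochrome c that leaves through the BAX and BAK pore, was at 38.6 and 217 CPM in wild type and 33.2 and 221 CPM in the Trpv4-null-labelled pair. Casp2 and Casp6 were at least 2-fold lower in each genotype, with log2 ratios of -1.36 and -1.34 in wild type. Of 8 compared genes for inhibitors of apoptosis and their partners, Xaf1 was higher (19.9 and 207 CPM for wild type, 27.3 and 241 CPM under the Trpv4-null label) and the mitotic gene Birc5 lower (log2 ratio -1.46 and -1.59), and the medians were -0.25 and -0.36. Of the other survival genes, Bcl2l2 (BCL-W) lay within 2-fold (-0.51 and -0.59) and the A1 copy Bcl2a1a was higher.

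The A1 copies were then added up. Bcl2a1a was counted at 0.549 CPM in untreated wild-type cells and 40.7 CPM after LPS, and at 0.0213 CPM (1 UMI) and 29.7 CPM in the Trpv4-null-labelled pair. With a single UMI below it, the second ratio has an interval from 250.1 to 55098, while the wild-type ratio was 74.2 (49.8 to 116). Added up, Bcl2a1a, Bcl2a1b and Bcl2a1d reached 76.7, 313, 63.9 and 243 CPM. The ratio of the sum was 4.08 (3.94 to 4.23) in wild type and 3.81 (3.67 to 3.95) in the Trpv4-null-labelled pair. The share of the sum assigned to Bcl2a1b was 97.0% and 98.7% untreated and 78.8% and 79.4% after LPS. As the copies differ at few bases, how much of that shift belongs to the genes and how much to the assignment of reads cannot be told apart here.

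**Figure D3:**
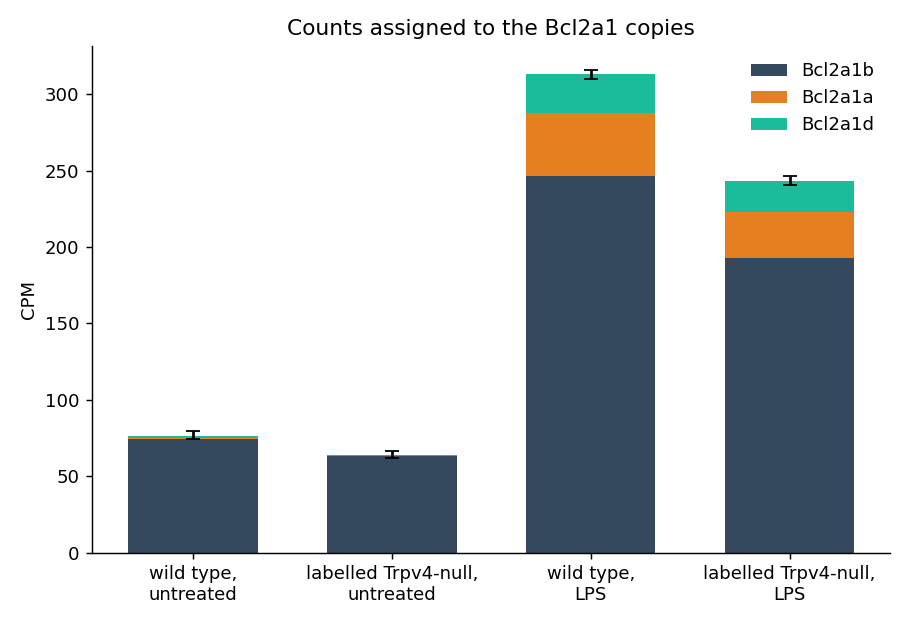
Counts assigned to the 3 Bcl2a1 copies in each library, stacked, in CPM, with the exact 95% counting interval of the sum as a bar. Bcl2a1b makes up nearly all of the sum in the untreated libraries, 97.0% and 98.7%, and 78.8% and 79.4% of it after LPS.

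The second question of the design is how the label Trpv4-null goes with these genes, untreated and after LPS. Differences were small, so a smaller size was used as the limit, at least 25% higher or at least 20% lower. In untreated cells 8 of the 10 genes were compared. Of these, Bcl2l1 and Bcl2l11 were at least 20% lower under the Trpv4-null label and none was at least 25% higher, where 3.01% of all 6156 compared genes were lower by that size and 3.41% higher. The median log2 ratio of the 8 was -0.13, against -0.02 over all genes. The Bcl2l1 levels of 27.1 CPM (wild type) and 16.5 CPM (labelled Trpv4-null) give a ratio of 0.609 (0.556 to 0.668), and only 0.487% of the compared genes had a log2 ratio as low. For Bcl2l11, 157 and 120 CPM give a ratio of 0.766 (0.739 to 0.794). Bmf, at 29.2 and 35.6 CPM, had a ratio of 1.22 (1.13 to 1.31), just inside the limit. The ratios of the others were 0.849 for Bcl2a1b, 0.915 for Mcl1, 0.908 for Cflar, 0.949 for Bax and 0.988 for Bak1, and the last turns above 1 with median-of-ratios scaling and in the largest cluster alone. Too low to be compared, Bcl2 had a ratio of 0.547 (0.373 to 0.793) and Bcl2a1d one of 0.453 (0.299 to 0.676). Median UMIs per cell (5660.5 and 7893) and summed neutrophil markers (186 and 337 CPM) also differed between these untreated libraries. The counts of genes past the limits were as large with cells thinned to 3000 UMIs and without the cells carrying at least 10 S100a8 and S100a9 UMIs.

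After LPS, 8 genes were compared and Bcl2a1b alone was at least 20% lower under the Trpv4-null label, with none at least 25% higher, where 2.56% of 5236 compared genes were lower and 3.04% higher. The median log2 ratio of the 8 was -0.00314, against -0.04 over all genes. Bcl2a1b had 247 CPM for wild type against 193 CPM, a ratio of 0.783 (0.769 to 0.796). With median-of-ratios or TMM scaling, or with cells thinned to 3000 UMIs, it falls inside the limit. Its copy Bcl2a1d had a ratio of 0.806 (0.764 to 0.850), and the sum of the 3 copies one of 0.777 (0.766 to 0.789). Bcl2l1, low in the untreated library labelled Trpv4-null, stood above wild type after LPS, at 68.1 against 59.4 CPM and a ratio of 1.15 (1.11 to 1.18). Mcl1 and Cflar had ratios of 1.09 (1.08 to 1.10) and 1.07 (1.06 to 1.09), Bcl2l11 had 0.879 (0.843 to 0.916), and Bax and Bak1 had 0.978 and 1.02, the first turning above 1 with median-of-ratios or TMM scaling and in the largest cluster alone. Bcl2, too low to be compared, had 1.38 (1.20 to 1.58). Bmf, also too low after LPS, was at 2.80 and 1.34 CPM, a ratio of 0.479 (0.393 to 0.580).

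Of the other death genes, 4 were at least 25% higher in the untreated library labelled Trpv4-null, namely Birc3, Birc5, Xaf1 and Zbp1, with log2 ratios of 0.39, 0.63, 0.44 and 0.69, and Bcl6 was lower (-0.53), of 42 compared. Birc5 and the proliferation marker Mki67, counted at 75.1 and 118 CPM, were both higher in that library. After LPS, Casp1 (0.37) and Birc5 (0.49) were higher and Bcl2a1a (-0.44), Bnip3 (-0.70) and Foxo3 (-0.33) lower, of 41 compared. Over all compared genes, 3.41% were higher and 3.01% lower by the same limits untreated, and 3.04% and 2.56% after LPS. The medians over these lists together were 0.03 in both comparisons, against -0.02 untreated and -0.04 after LPS over all compared genes. Whether the lists differ from all genes was not tested.

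The LPS response of each gene was then set side by side for the genotypes. For 6471 genes with enough counts, the response in the Trpv4-null-labelled pair minus that in wild type had a median of -0.04 on the log2 scale, and 96.2% lay within 0.5 of zero. Bcl2l1 and Bmf lay outside that range. For Bcl2l1 the response was larger by 0.88 in the Trpv4-null-labelled pair, a value at the 99.4th percentile of those genes. For Bmf it was -0.97, at the 0.0927th percentile. Without the pseudocount the 2 differences were 0.91 (0.77 to 1.05) and -1.35 (-1.64 to -1.05). Those of Bcl2a1b, Bax and Bak1 were small, at -0.12, 0.04 and 0.04, and those of Mcl1, Bcl2l11, Cflar and Bcl2a1d were 0.26, 0.20, 0.24 and 0.32. Without the pseudocount the difference for Bcl2a1d was 0.83 (0.27 to 1.40), resting on 78 and 38 untreated UMIs, and it was -0.07 with cells thinned to 3000 UMIs. For Bcl2, with fewer counts than the genes ranked here, it was 0.86, and 1.33 (0.78 to 1.89) without the pseudocount. With 1 library for each of the 4 groups, these differences were not tested.

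The authors' cluster names divide each library into 9 groups of cells, 8 of them with at least 100 cells in each library. The clusters were made from the expression of the same cells, so levels by cluster are a description. For Bcl2l1, Bcl2a1b, Bcl2a1d, Bak1 and Cflar the LPS ratio was above 1 in 8 of 8 clusters in each genotype, and for Bcl2l11 and Bmf it was below 1 in 8 of 8, with counting intervals that left out 1 in each of these clusters. Except for Bcl2l1 in wild type, the lowest and highest clusters of these genes after LPS did not overlap with those untreated. The share of all genes with such a direction in 8 of 8 clusters, or with no overlap, was not counted. These genes were already past 2-fold in the same libraries, so their split by cluster is no separate support. Among these 8 clusters Bcl2l11, for example, spanned 129.6 to 179.8 CPM over the untreated wild-type clusters and 32.3 to 49.3 CPM after LPS. Bcl2l1 in wild type spanned 12.98 to 48.5 CPM untreated and 33.8 to 79.5 CPM after LPS. Mcl1 was above 1 in 2 clusters and below in 6 in wild type, and above in 7 and below in 1 in the Trpv4-null-labelled pair.

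**Figure D4:**
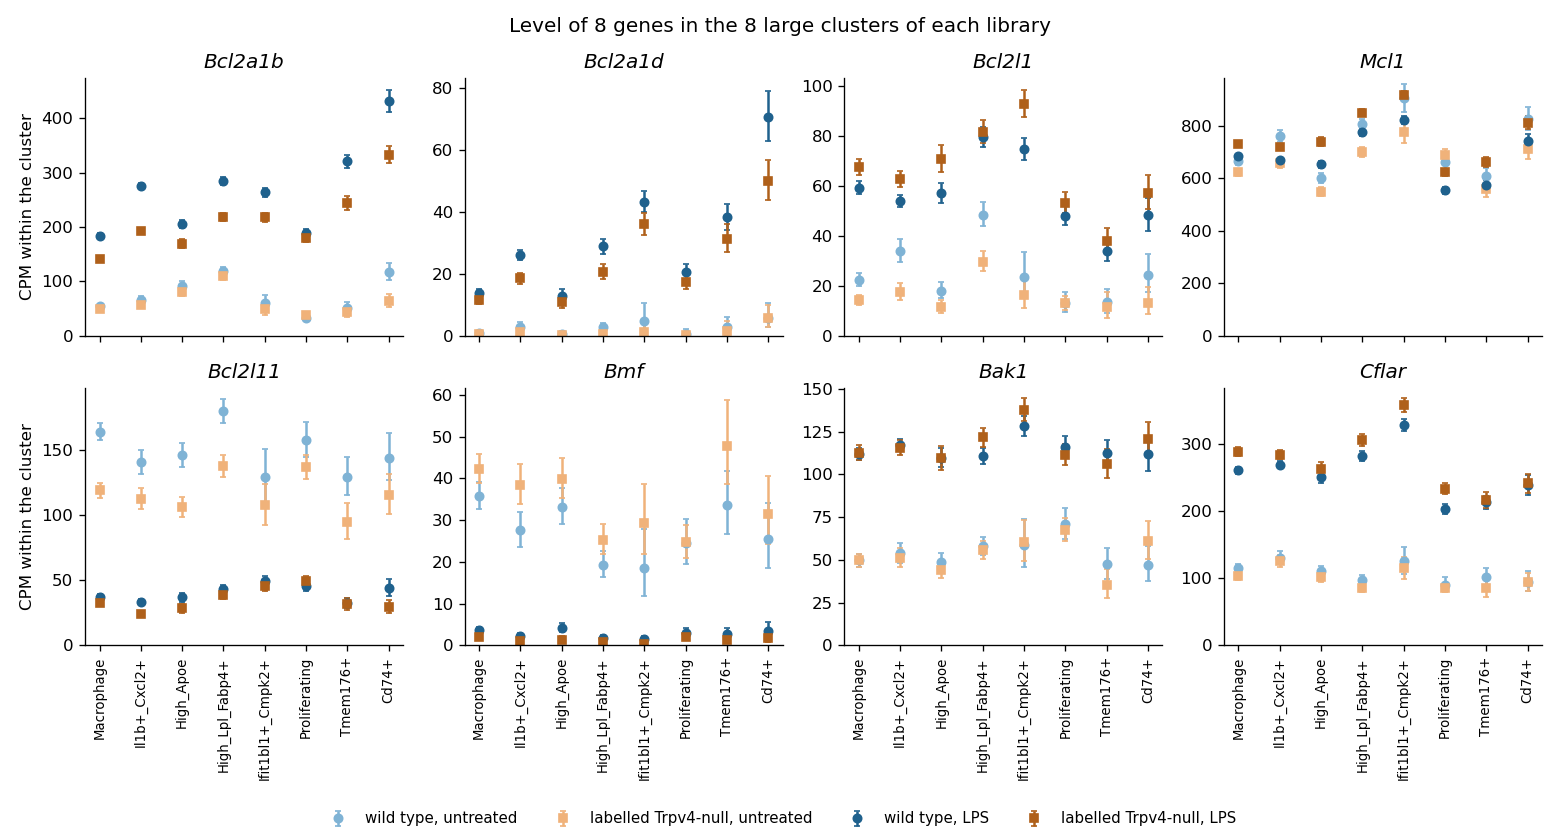
Level of 8 of the 10 genes in the 8 large clusters of each library, as CPM within the cluster with exact Poisson 95% intervals, each panel on its own axis from 0. The LPS and untreated points are apart in all 8 clusters for Bcl2a1b, Bak1, Cflar, Bcl2l11 and Bmf, and the A1 genes peak in the Cd74+ cluster after LPS. How many of all genes are set apart in this way was not counted.

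The small cluster left out of these ranges and of the ranks that follow, High_Btg1, held 5, 36, 3 and 23 cells (wild type untreated and LPS, then labelled Trpv4-null untreated and LPS). It lay above each of the other 8 for Bcl2l11, at 395, 165, 224 and 184 CPM, and for Mcl1, at 1318, 944, 926 and 965 CPM. However, in both libraries labelled Trpv4-null its Mcl1 interval took in the level of the next cluster. So did its Bcl2l11 interval in the untreated library labelled Trpv4-null, at 96.9 to 442 CPM from 8 UMIs. The untreated wild-type level of Bcl2l11 rested on 12 UMIs. Bcl2l1 in High_Btg1 was at 165 CPM (5 UMIs) in untreated wild type and 111 CPM (82.5 to 147) in the LPS library labelled Trpv4-null.

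Within a library the genes differed in which of the 8 large clusters was highest. After LPS the A1 genes were highest in the cluster named Cd74+, after the invariant chain of MHC class II. Bcl2a1b stood at 432 CPM there in wild type against 183 CPM in the cluster named Macrophage, the lowest, and at 333 against 141 CPM in the Trpv4-null-labelled library. Bcl2a1d followed, with 70.6 CPM in Cd74+ and 12.8 CPM in High_Apoe in wild type, and 50.0 and 10.9 CPM in the Trpv4-null-labelled library. In untreated cells Bcl2a1b was instead highest in High_Lpl_Fabp4+, at 118 CPM in wild type, where Cd74+ stood at 117 CPM and did not differ from it beyond counting error, and at 109 CPM in the Trpv4-null-labelled library. It was lowest in the cluster named Proliferating in both untreated libraries, at 32.9 and 37.7 CPM.

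Bcl2l1 had its highest level in High_Lpl_Fabp4+ in 3 libraries, at 48.5 CPM (wild type untreated), 79.5 CPM (wild type with LPS) and 29.6 CPM (labelled Trpv4-null, untreated). In the LPS library labelled Trpv4-null it was highest of the 8 in Ifit1bl1+_Cmpk2+, at 93.1 CPM. That cluster, named for 2 interferon-induced genes, also had the highest Mcl1 of the 8 in all 4 libraries, with 776 to 916 CPM. After LPS it had the highest Cflar (329 and 358 CPM) and the highest Bak1 (128 and 138 CPM) in both genotypes. Its Bmf was then the lowest (1.53 and 0.330 CPM, from 23 and 4 UMIs). Bax and Bak1 in untreated cells were highest in Proliferating, with 352 and 371 CPM of Bax and 71.0 and 67.5 CPM of Bak1. Bcl2l11 varied little over the clusters of untreated wild type, where the highest was 1.39 times the lowest. After LPS it was lowest in Tmem176+ in wild type (32.3 CPM) and in Il1b+_Cxcl2+ in the Trpv4-null-labelled library (23.9 CPM). Intervals overlapped those of the next cluster for untreated Mcl1 and Bak1 in both genotypes, Bax in untreated wild type and Bcl2l1 in LPS-treated wild type. They also did for the lowest Bmf and Bcl2l11 after LPS in both genotypes. Overlap was also present for the lowest Bcl2a1b in LPS-treated wild type and in the untreated library labelled Trpv4-null. The Bcl2a1d interval in High_Apoe after LPS overlapped that of Macrophage in both genotypes.

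The genotype differences held their direction across clusters for part of the genes. In untreated cells Bcl2l1 and Bcl2l11 were below wild type in 8 of 8 clusters of the library labelled Trpv4-null, with counting intervals that left out 1 in 5 and 7 of them, and Bmf was above in 8, with 5 such intervals. Bcl2a1d and Cflar were also below in 8 of 8 untreated, with 2 such intervals each. After LPS Bcl2a1b was below wild type in 8 of 8 clusters (7 intervals), and Bcl2a1d (6) and Bmf (4) likewise. Mcl1 was above in 8 of 8 (8 intervals), as were Cflar (5), Bcl2 (5) and Bcl2l1 (4). In each comparison the genes not named had clusters in both directions. The clusters of a library share its culture and preparation, so they are not replicates. They are also parts of the library counts already compared above, so this split by cluster is no separate support. How many of all genes keep their direction in 8 of 8 clusters was not counted. Over whole libraries, 42.4% of all compared genes had a log2 ratio above 0 untreated and 37.4% after LPS.

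The share of cells with at least 1 UMI was then taken at equal depth. With each cell thinned to 3000 UMIs, leaving out 666, 122, 209 and 93 shallower cells (wild type untreated and LPS, then labelled Trpv4-null untreated and LPS), Bcl2a1b was found in 15.3%, 43.3%, 13.5% and 37.6% of cells. Cflar was found in 28.2%, 54.3%, 26.2% and 57.1%, and Bcl2l11 in 35.6%, 12.3%, 29.3% and 10.1%. Bmf was found in 8.46%, 0.796%, 10.5% and 0.494% of thinned cells. At the cells' own depth the corresponding shares were 25.2%, 82.2%, 26.8% and 77.6% for Bcl2a1b and 54.9%, 41.5%, 57.1% and 35.6% for Bcl2l11. Thinned shares of Bcl2l1 were 7.42%, 16.9%, 4.49% and 18.8%, and those of Bak1 14.6%, 28.9%, 14.0% and 29.9%. For Mcl1 the thinned shares were 84.2%, 86.1%, 82.4% and 87.7%, so that in wild type the share was higher after LPS while the CPM were lower (705 and 689), and no order is read from it. Bax was found in 50.0% to 57.01% of thinned cells, and Bcl2 and Bcl2a1d in at most 1.14% and 5.83%. The annotation has no cluster that should lack these genes, so the share that free RNA gives was not measured.

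**Figure D5:**
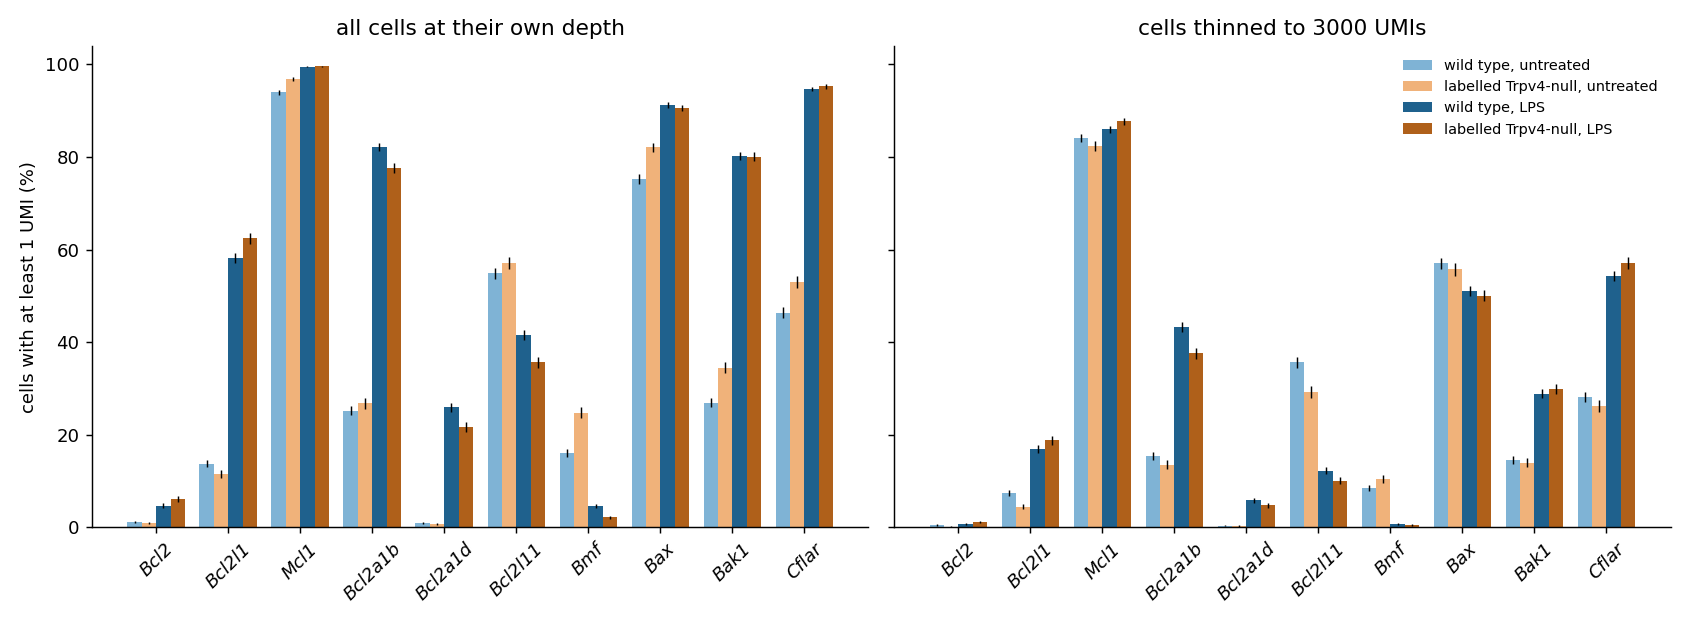
Share of cells with at least 1 UMI of each gene, in percent, at the cells' own depth (left) and after thinning each cell to 3000 UMIs (right), with exact (Clopper-Pearson) 95% intervals. The share of cells with Bax is higher after LPS on the left and lower on the right, and Bcl2l11 and Bmf are found in fewer cells after LPS on both sides.

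The A1 copies were then read cell by cell, at 3000 UMIs. After LPS, Bcl2a1d was found in 8.01% of the wild-type cells with Bcl2a1b and in 4.17% of those without it, and in 6.90% and 3.47% of the cells labelled Trpv4-null. As these copies differ at few bases, the part of read assignment in these shares was not tested. Bcl2l11 was found at much the same share in cells with and without Bcl2a1b after LPS, 11.7% and 12.7% in wild type and 10.6% and 9.78% in the Trpv4-null-labelled library. The same held for Cflar, at 53.6% and 54.8%, and 56.6% and 57.4%.

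Within each library the genes were also read by the mitochondrial share of the cell. In the untreated wild-type library Bcl2a1d was at 3.46 CPM in the 1737 cells with at most 5% mitochondrial UMIs and 1.16 CPM in the 5291 cells above. Bcl2a1b was higher in the cells with the lower share in all 4 libraries, at 89.4 against 68.7 CPM and 253 against 171 CPM in wild type, and 74.0 against 59.8 CPM and 198 against 142 CPM in the Trpv4-null-labelled pair. Bcl2l1 had no single direction, being higher in those cells untreated (30.1 against 26.0 CPM in wild type) and lower after LPS (58.4 against 70.1 CPM). Bcl2l11 was at 155 and 157 CPM in untreated wild-type cells, close to each other.

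Over the 32 points made of 8 clusters in 4 libraries, the genes most like each of the 10 were sought among 6332 genes by Pearson correlation of log2 CPM. These correlations are descriptions, since the points of a library share its depth and treatment. For Bmf the nearest were Arhgef6 and Deptor (both r = 0.992) and Eif4ebp2 (0.989), and for Bcl2l11 Zcchc11, Adssl1 and Mob2 (0.975, 0.971 and 0.971). For Cflar they were Slc31a2, Slfn4 and Ccl7 (0.983, 0.981 and 0.980), and for Bak1 Pla2g4a, Cycs and Aars (0.976, 0.972 and 0.972). By Spearman correlation the 3 nearest to Bak1 were instead Socs1, Lims1 and Gch1. Bcl2a1d had H2-M3, Traf1 and Bcl2a1a (0.958, 0.954 and 0.954), Bcl2a1b had Fth1, Trappc2l and Ctsz (0.937, 0.935 and 0.930), and Bcl2l1 had Slc11a2, Plek and Ell2 (0.967, 0.958 and 0.948). For Mcl1, Bax and Bcl2 the nearest genes were less close, led by Etv3 (0.829), Ola1 (0.820) and Plek (0.848). The names depend on the measure. By Spearman correlation, or with the mean of each library taken off, 6 lists kept most of the 3 genes and 14 did not.

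Among the 10 genes themselves, the pair with the lowest correlation was Bmf and Bak1 (r = -0.964), and it was -0.653 with the mean of each library taken off. Bcl2l11 and Bmf went together over all points (0.916) but not within libraries (-0.333). Bcl2a1b and Bcl2a1d kept a positive correlation, at 0.913 over all points and 0.522 within libraries. For these near-identical copies the part of read assignment was again not tested.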

How the data were processed

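Droplet single-cell RNA sequencing (10x Genomics) of bone marrow-derived macrophages gave 1 library for each of 4 groups. The authors deposited whole-number UMI counts, not normalized, for 14432 genes in 27366 cells, and a cell annotation with, per the file headers, each cell's library, cluster name and mitochondrial fraction. The mouse build mm10 and the tools Seurat 4, R 4.2 and Cell Ranger 3.1.0 are named in the submitters' processing notes. For filters, doublet removal and strand use, the sources used here give nothing. No doublet caller was run here. In the deposited values, cells had 1003 to 39987 UMIs and at most 9.998% mitochondrial UMIs, and each of the 27366 cells matched its annotated total.

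UMIs were summed per library (and cluster) and scaled to CPM, per 1000000 UMIs. Ratios are log2 of CPM plus 1, compared where the higher library had at least 20 CPM and 30 UMIs. The sizes of 2-fold (LPS) and 25% higher or 20% lower (label) are descriptions, not tests. CPM carry exact Poisson, ratios exact conditional and shares exact binomial (Clopper-Pearson) 95% intervals, which cover counting error only. The 10 genes, the 7 death gene lists and the marker lists were chosen with earlier results of these data known. All 10 genes are given in each comparison, with up to 3 compared genes of the largest log2 ratio per list and the 3 most similar genes per member. Gene models without a name were skipped. Positions came from GENCODE M21 and promoters from RefSeq (GRCm38.p6), and all 10 symbols matched.

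Alternatives were other scalings (median of ratios, and TMM factors from edgeR 4.0.16 in R 4.3.3), the pseudocount, no filter, equal weights of cells or clusters, the largest cluster alone, cells left out by markers, depth, mitochondrial share or cell cycle, and thinning. Python 3.11.15 with scanpy 1.11.5, Biopython 1.88, pandas 2.3.3, scipy 1.17.1 and numpy 2.4.6 was used, and figures were drawn with matplotlib 3.10.9. The ratio step was tested on simulated counts.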

Additional observations from a re-analysis of the deposited data

Results flagged for a closer look

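Some genes moved in opposite directions under the same contrast in 2 groups. With 1 library in each group the difference was not tested in any of them. On the log2 scale, the LPS response of Mcl1 was -0.0312 for wild type and 0.23 for the pair labelled Trpv4-null, but the first was above 0 in 5 of 11 alternatives, from 0.03 with cells weighted equally to 0.49 with TMM scaling. The difference between the library labelled Trpv4-null and wild type was below 0 untreated and above 0 after LPS for Bcl2 (-0.50 and 0.36), Bcl2l1 (-0.68 and 0.19), Mcl1 (-0.13 and 0.13) and Cflar (-0.14 and 0.10), and it was above 0 untreated and below 0 after LPS for Bmf (0.28 and -0.70). Bcl2 in each library, and Bmf after LPS, lie below 20 CPM.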

How the results depend on the processing

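No paired analysis was possible because each group holds 1 library, and for the same reason no replicate could be left out. The 7 genes past 2-fold with LPS kept their direction in both genotypes under all 11 alternatives that gave a ratio. Without cells over 5% mitochondrial UMIs, which removes 5291 and 4232 cells of the untreated libraries and 984 and 750 after LPS, 3 genes in place of 5 were at least 2-fold higher in wild type, as Bcl2l1 and Bak1 fell to 0.93 and 0.97 on the log2 scale. In the largest cluster alone it was 4 in each genotype, in the Trpv4-null-labelled pair it was also 4 with cells weighted equally, with thinned cells or without the 5% of cells with most UMIs, and it was 6 there without the filter on low counts. For untreated cells, 1 gene (Bmf) was at least 25% higher in the library labelled Trpv4-null with the 8 clusters weighted equally, without cells over 5% mitochondrial UMIs, or when cells in a called S or G2/M phase were dropped (0 in the reported fit), and 4 in place of 2 were at least 20% lower without the filter on low counts. After LPS, the count of 1 lower gene became 0 with median-of-ratios scaling, 0 with TMM factors, 0 with thinned cells and 2 with the clusters weighted equally. Without the filter it was 2 lower and 1 higher.

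Scaling moved the median gene of the LPS comparison from -0.39 to -0.08 (median of ratios) and 0.18 (TMM) in wild type, and from -0.42 to -0.11 and 0.22 in the Trpv4-null-labelled pair. Higher genes then made up 28.0%, 48.8% and 68.4% of those past 2-fold in wild type and 25.6%, 44.9% and 67.9% in the Trpv4-null-labelled pair, and of those past the limits between genotypes 53.2%, 65.1% and 55.9% untreated and 54.3%, 70.2% and 77.6% after LPS. Relative to the median gene, the LPS log2 ratio was 0.36 for Mcl1 and 0.24 for Bax in wild type and 0.64 and 0.31 in the Trpv4-null-labelled pair. Adding up the Bcl2a1 copies, an alternative chosen after seeing the data, gave log2 ratios of 2.03 and 1.93 for LPS. Depth limits Bcl2, Bcl2a1d untreated and Bmf after LPS, with 38 to 433 UMIs per library.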
